A study of Mus musculus with 6 samples.

Results

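The nuclear genes for subunits of the oxidative phosphorylation machinery are described here in sorted mouse bone marrow cells, labelled SRF-null or control. Serum response factor (SRF) is a transcription factor best known for control of actin cytoskeleton and immediate early genes. The genes were chosen as a fixed list of 45 symbols, taking every probe set whose platform annotation names 1 of these genes and no other. Of the 45 genes, 44 were found, on 96 of the 45101 probe sets of the array, and Cox7b was not analysed here. They made up 44 of the 18193 genes tested. The list holds 24 genes of complex I, 4 of complex II, 7 of complex III, 6 of complex IV and 3 of complex V. Ndufa4 carries a complex I name but is counted with complex IV, where its product is now placed.

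The cells were LSK cells (lineage-negative, Sca1-positive, c-Kit-positive), the bone marrow fraction in which hematopoietic stem cells and multipotent progenitors reside. All mice were C57BL/6 and carried Mx1-Cre, a recombinase that interferon switches on in many cell types. The SRF-null group was Srf flx/flx;Mx1-Cre and the control group Srf+/+;Mx1-Cre. Mice of both groups received pIpC, a double-stranded RNA that induces interferon, in 3 injections of 200 µg at intervals of 2 days from an age of 6 weeks, and cells were sorted 35 days after the last one. Each group holds 3 arrays, made from 30 ng of total RNA from pooled animals. The size of the pools, and whether animals were shared between them, were not given in the sources used here, and the p-values therefore cover the spread between samples and nothing more.

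Oxidative phosphorylation couples electron flow along the inner mitochondrial membrane to ATP synthesis. Complex I takes electrons from NADH and complex II from succinate, complex III passes them to cytochrome c, complex IV hands them to oxygen, and complex V uses the resulting proton gradient to make ATP. Most subunits are encoded in the nucleus and a few in mitochondrial DNA. Hematopoietic stem cells are known for a low reliance on this pathway, which grows in importance as they leave quiescence and differentiate.

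The arrays had median signals of 201 to 292 before normalization. The Y-linked gene Eif2s3y was at 4.37 on control replicate 2 and at 13.06 to 14.50 elsewhere, and Xist was at 5.03 on SRF-null replicate 1 and at 15.13 to 16.24 elsewhere, so these pools held transcripts of 1 sex and the other 4 those of both. On its brighter probe set Srf itself was at 13.04, 13.00 and 13.04 on the control and 12.58, 12.43 and 12.80 on the SRF-null arrays. These groups did not overlap, and the difference of −0.42 (SE 0.14), or 1.34-fold lower, did not pass the adjustment. Its dimmer probe set differed by 0.10 (SE 0.35). Srf signal thus remained on the SRF-null arrays, and the extent of the deletion was not tested. Of the 8 LSK markers listed 6 were measured, among them Kit at 14.81 to 15.44 and Cd34 at 16.72 to 16.93. Of these 6, 4 were higher in SRF-null cells (median difference 0.066), and 3 of 6 without control replicate 1 (0.044). Slamf1, the LSK marker with the smallest p, was at 11.60, 12.33 and 11.80 against 11.61, 10.73 and 9.18 on arrays 1, 2 and 3 of each group, differing by −1.40 (SE 0.61) with a limma adjusted p of 0.871. The mean over the 6 markers, Slamf1 included, was 14.18 on SRF-null array 3 and 14.67 to 14.88 on the other 5. The log2 excess of 3′ over 5′ signal, a sign of RNA integrity, was 0.97 to 1.198 for Gapdh on the control and 0.67 to 1.16 on the SRF-null arrays, and 1.18 to 1.45 for beta-actin on the control against 0.93 to 1.51 on the SRF-null arrays. Macrophage markers moved with genotype: all 8 measured were higher in SRF-null cells, with a mean level of 9.10 to 9.48 on control and 9.64 to 11.03 on SRF-null arrays. T and NK cell markers were higher for 7 of 8, at 6.02 to 6.37 against 6.34 to 7.52 (median difference 0.80, or 0.49 without SRF-null replicate 3). B cell markers were higher for all 7 measured, at 7.29 to 8.54 against 7.47 to 9.54, but for 3 of 7 without SRF-null replicate 3 (median difference 0.21, or −0.0032 without it). Megakaryocyte markers were higher for 6 of 8, at 9.63 to 10.70 against 9.87 to 10.86, and for 4 of 8 without control replicate 1 (median difference 0.32, or −0.010 without it). Erythroid markers were higher for 5 of 6, at 8.09 to 8.32 against 7.88 to 8.84, and for 3 of 6 without control replicate 1 (median difference 0.12, or 0.033 without it). Granulocyte markers were higher for 4 of 8, at 11.10 to 12.04 against 11.13 to 12.15 (median difference −0.0020). Among the 23 macrophage, T and NK cell and B cell markers 0 were at a signal of 0, and Cd3g and Pax5 lay under a signal of 16 on every array. The part of these cells, of RNA integrity and of sex in the differences below was not tested.

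None of the 44 genes differed between SRF-null and control cells beyond the adjusted threshold. All values below are quantile-normalized log2(intensity + 16), and differences are SRF-null minus control. By limma with Benjamini-Hochberg adjustment over all genes, 0 of 44 genes passed a threshold of 0.05 (background 0% of all genes tested), and the smallest adjusted p was 0.858. Of the 44 genes 0 had an unadjusted p under 0.05 in the same fit, against 5.73% of all genes. Groups were separated, with no overlap of arrays, for 3 of the 44 genes (6.82%), against 10.6% of all genes. These were 2 higher genes (background 5.16%) and 1 lower gene (background 5.45%). With each array centred on its median in place of quantile normalization 0 of the 44 were separated. In 39 of 44 the difference was smaller than 0.25 in size, as in 70.6% of all genes and in 85.0% of the 5857 genes at least as bright as the dimmest of the 44. In 32 of the 44 the difference was smaller than its own standard error, as in 11556 of all 18193 genes and in 4011 of those 5857. The range ran from −0.36 for Uqcrc1 to 0.31 for Ndufa6. A p that misses the threshold does not show equality. The median standard error of 0.13 sets the resolution of these comparisons.

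Within that narrow range the signs were uneven. Of the 44 genes 35 were higher and 9 lower in SRF-null cells (79.5% higher), with a median difference of 0.084, beside 48.6% higher and a median of −0.0069 over all genes tested. Centring each array on its median in place of quantile normalization gave 29 higher and 15 lower (65.9% higher, against 42.8% of all genes with a median of −0.036). Array 1 of the control group carried much of the unevenness: it was the lowest of the 6 arrays for 26 of the 44 genes (59.1%), whereas it was lowest for 25.3% of all genes. Without it 24 of 44 genes were higher (54.5%), and the median was 0.026, against 43.4% and −0.040 over all genes. Without SRF-null replicate 3 the count was 27 (61.4%), with a median of 0.083, against 48.2% and −0.011 over all genes. SRF-null array 2 was the highest array for 21 of the 44 genes (47.7%), against 22.3% of all genes. It was the lowest for 11 of the 44, against 2975 of all 18193. Without SRF-null array 2 the count of higher genes was 33 (75%), with a median of 0.071, against 45.6% and −0.021 over all genes.

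**Figure D1:**
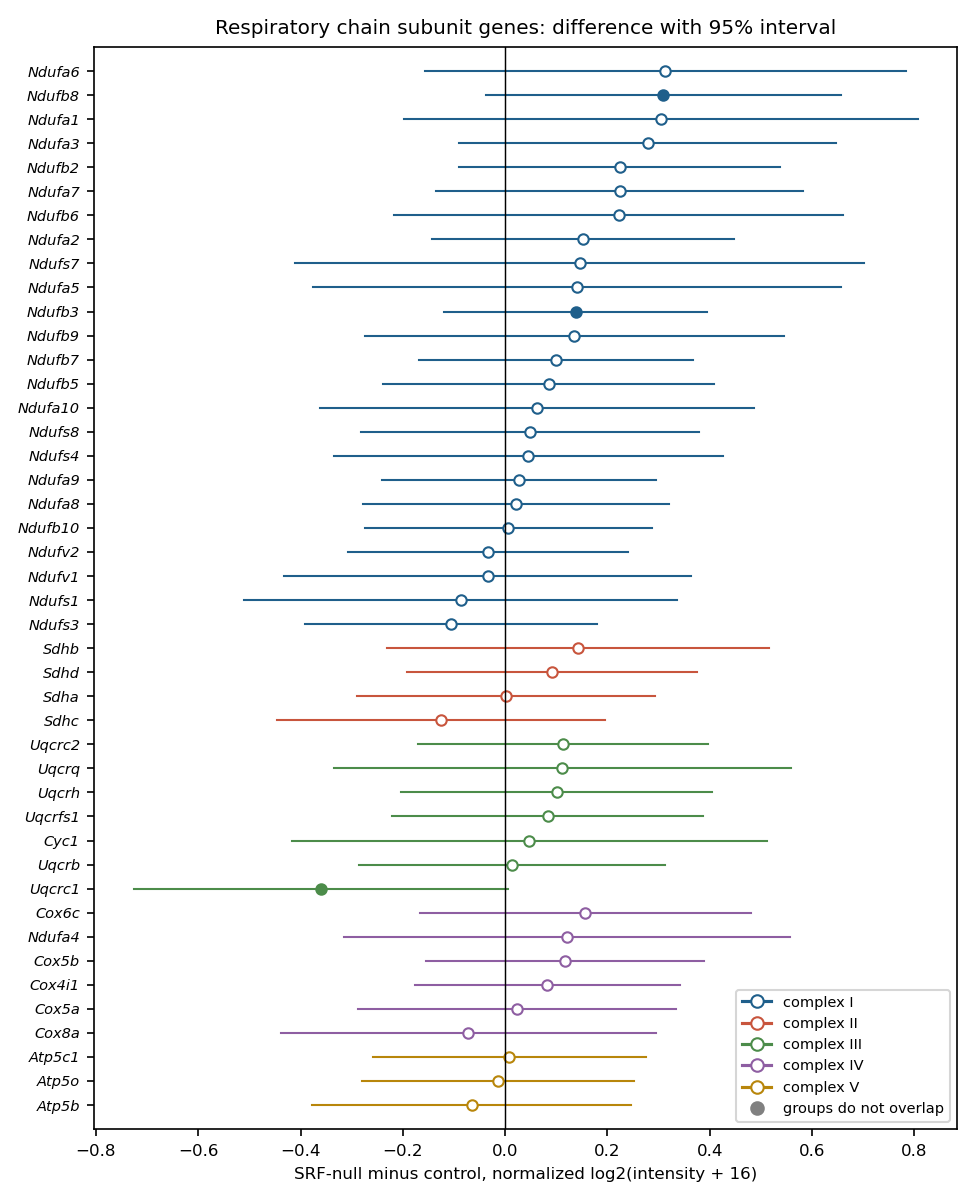
Difference between SRF-null and control cells (x axis, log2 units) for each of the 44 genes (y axis), grouped by complex, with 95% intervals from limma as bars. Filled circles mark Ndufb8, Ndufb3 and Uqcrc1, whose 3 control and 3 SRF-null arrays do not overlap; every interval includes 0.

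Complex I is the largest assembly of the chain. A core that is conserved from bacteria holds the flavin, the iron-sulfur clusters and the proton channels, and many small accessory subunits surround it. Of its 24 genes 20 were higher and 4 lower, with a median difference of 0.12, and 0 passed the adjusted threshold. Without control array 1 the count was 15 of 24 and the median 0.055. The 2 genes of this complex with separated groups, Ndufb8 and Ndufb3, both encode accessory subunits of the membrane arm, and neither was separated after median centring. Ndufb8 was at 15.60, 15.71 and 15.70 on control arrays 1, 2 and 3 and 15.96, 16.20 and 15.79 on SRF-null arrays 1, 2 and 3. Every SRF-null array lay above every control array, with array 2 highest and array 3 close to the controls. The difference was 0.31 (SE 0.14), or 1.24-fold, with a 95% interval of −0.037 to 0.66 and a limma adjusted p of 0.876. Its dimmer probe set differed by 0.24 (SE 0.20). Ndufb3 was at 16.03, 16.04 and 15.94 on control arrays 1, 2 and 3 and 16.15, 16.17 and 16.11 on SRF-null arrays 1, 2 and 3. These values formed 2 tight groups, and the difference was 0.14 (SE 0.11), or 1.10-fold, with a limma adjusted p of 0.959.

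The other complex I genes with the smallest p all encode accessory subunits. Ndufa6, a subunit of the LYR-motif family, was at 15.38, 15.42 and 15.55 against 15.77, 16.10 and 15.42 on arrays 1, 2 and 3 of each group, a difference of 0.31 (SE 0.19). SRF-null arrays 1 and 2 were above all controls, and array 3 was level with control array 2. Ndufa1, a small membrane subunit encoded on the X chromosome, was at 14.43, 15.10 and 14.78 against 14.90, 15.29 and 15.03, differing by 0.30 (SE 0.21). Control array 1 was far below the rest and the other 5 arrays intermingled. Ndufa3 was at 16.08, 16.37 and 16.33 against 16.35, 16.72 and 16.54, differing by 0.28 (SE 0.15), with SRF-null array 1 inside the control range. Ndufb2 was at 14.82, 15.06 and 14.86 against 15.16, 15.23 and 15.01, differing by 0.22 (SE 0.13), and here SRF-null array 3 fell below control array 2. Ndufa7 was at 14.95, 15.02 and 14.79 against 15.11, 15.36 and 14.97, a difference of 0.22 (SE 0.15). All 5 probe sets of Ndufa7 were higher in SRF-null cells, the other 4 by 0.21 to 0.52. Ndufa2 was at 15.74, 15.91 and 15.86 against 15.90, 16.12 and 15.95, differing by 0.15 (SE 0.12). Limma adjusted p-values for these 6 genes ran from 0.923 to 0.960, and SRF-null array 2 held the highest value of the 6 arrays in each.

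**Figure D2:**
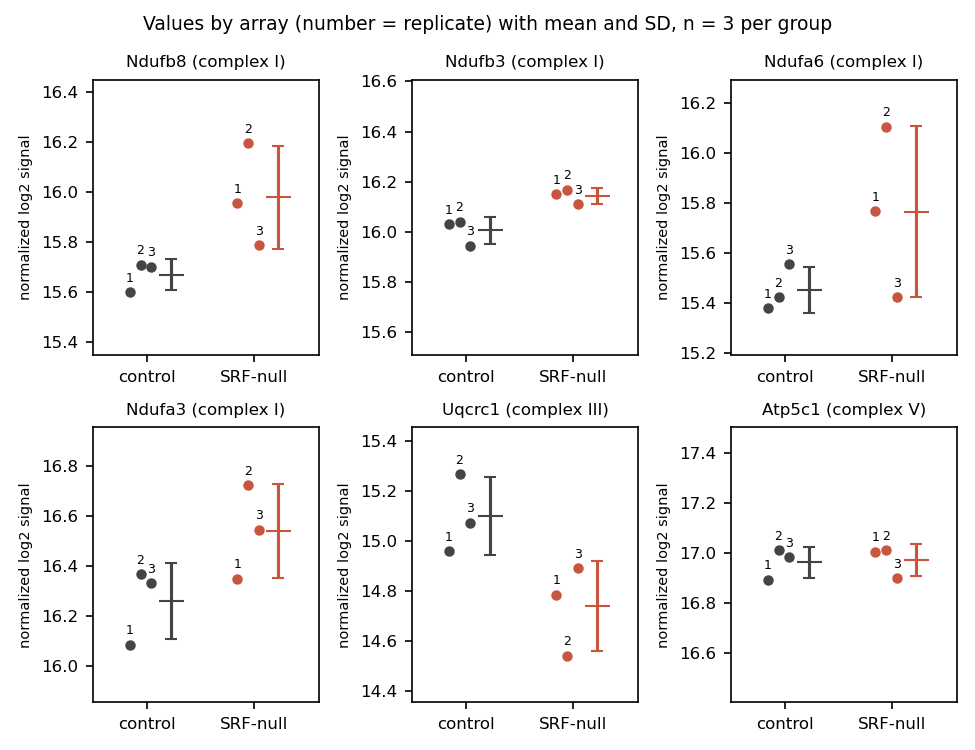
Normalized log2 signal (y axis) of 6 genes on each array, control against SRF-null (x axis), with the replicate number beside each point and the mean ± SD (n = 3) to the right; every panel spans the same range of log2 units. Ndufb8 and Ndufb3 are separated upward and Uqcrc1 downward, Ndufa6 and Ndufa3 overlap, and Atp5c1 is level.

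Accessory and core subunits of complex I differed in their balance of signs, a split that was drawn after the values had been seen and has no test. All 18 accessory genes were higher in SRF-null cells, with differences of 0.0065 to 0.31 and a median of 0.14. Of the 6 core genes 2 were higher and 4 lower, with a median of −0.034. The core genes are Ndufs1 (−0.087), Ndufs3 (−0.11), Ndufs7 (0.15), Ndufs8 (0.048), Ndufv1 (−0.034) and Ndufv2 (−0.034), which carry iron-sulfur clusters, the flavin or the electron path. Each of these 6 differences was smaller than its standard error, as were 9 of the 18 accessory differences. Ndufs1, the largest iron-sulfur subunit, was at 14.71, 14.93 and 14.85 against 14.74, 14.46 and 15.03, with the lowest and the highest value both in the SRF-null group, and without SRF-null array 2 its difference was 0.053. Without control array 1 the counts were 15 of 18 accessory and 0 of 6 core genes higher. Without SRF-null array 2, which was the highest array for 13 of the 18 accessory genes, they were 16 of 18 and 2 of 6. Without SRF-null array 1 the core genes turned to 4 of 6 higher, with a median of 0.020, and 17 of 18 accessory genes were higher. Without the pair of 1-sex arrays (control 2 and SRF-null 1) the core count was also 4 of 6, with a median of 0.039, and without control array 3 it was 3 of 6, with a median of 0.027. With the probe sets of each gene averaged the counts were 16 of 18 accessory and 3 of 6 core genes. After median centring they were 16 of 18 and 2 of 6. Of 10 further accessory genes of complex I that are not among the 44, 8 were higher, with a median of 0.068, and without control array 1 the count was 6 and the median 0.020. The remaining accessory genes of the 44 (Ndufa5, Ndufa8, Ndufa9, Ndufa10, Ndufb5, Ndufb6, Ndufb7, Ndufb9, Ndufb10 and Ndufs4) differed by 0.0065 for Ndufb10 to 0.22 for Ndufb6.

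**Figure D3:**
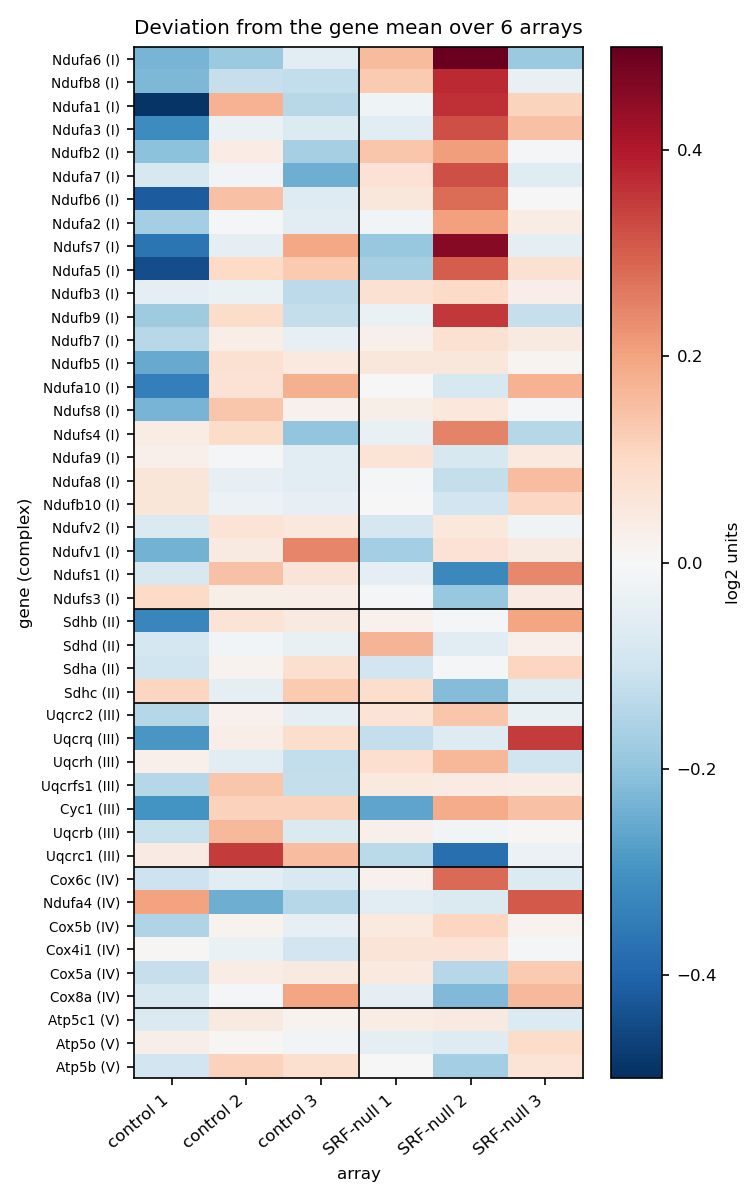
Deviation of each array (columns) from the mean of the gene over 6 arrays, in log2 units (colour), for the 44 genes (rows) ordered by complex and by difference. Control array 1 is the lowest array for 26 genes, and SRF-null array 2 is the highest for 21 and the lowest for 11.

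Complex II is succinate dehydrogenase, which also works in the tricarboxylic acid cycle, and all 4 of its genes are on the list. None was separated by genotype, and their differences ran from −0.12 to 0.14. Sdha, the flavoprotein, was at 16.12, 16.24 and 16.30 against 16.13, 16.21 and 16.33 on arrays 1, 2 and 3 of each group, differing by 0.0019 (SE 0.12). A second Sdha probe set of similar brightness differed by −0.12 (SE 0.12), so the sign of this gene depends on the probe set. With all 4 of its probe sets averaged the difference was 0.25, which rests on the dim ones, at 0.71 (SE 0.63) and 0.40 (SE 0.53). Sdhb, the iron-sulfur subunit, was at 15.23, 15.63 and 15.60 against 15.58, 15.55 and 15.76, differing by 0.14 (SE 0.15), with control array 1 below the other 5. Sdhc and Sdhd are the membrane anchors. Sdhc was at 15.02, 14.87 and 15.04 against 15.00, 14.70 and 14.85, differing by −0.12 (SE 0.13), and Sdhd at 15.20, 15.27 and 15.25 against 15.46, 15.23 and 15.31, differing by 0.092 (SE 0.12). The anchors thus had opposite signs, each within 1 standard error of 0. The second probe set of Sdhd also turned the sign, at −0.056 (SE 0.21).

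Complex III, the cytochrome bc1 complex, held the largest difference of all 44 genes. Uqcrc1, a core protein that faces the matrix, was lower in SRF-null cells while 6 of the 7 genes of this complex were higher. That count was 3 of 7 without control array 1, with a median of −0.0059 in place of 0.083, and 4 of 7 without SRF-null array 3, with a median of 0.012. On its only probe set Uqcrc1 was at 14.96, 15.27 and 15.07 on control arrays 1, 2 and 3 and 14.78, 14.54 and 14.89 on SRF-null arrays 1, 2 and 3. No SRF-null array reached the lowest control array, a separation that median centring ended, with array 2 lowest of all, and the means were 15.10 ± 0.16 in control and 14.74 ± 0.18 in SRF-null cells (SD, n = 3). The difference was −0.36 (SE 0.15), or 1.28-fold lower, with a 95% interval of −0.73 to 0.0057 and a limma adjusted p of 0.858. With the replicate number as a block 0 of the 44 genes had an unadjusted p under 0.05, against 8.12% of all genes, and Uqcrc1 had a limma adjusted p of 0.687. The SRF-null array was lower in each of the 3 numbered pairs, by 0.17, 0.73 and 0.18.

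Its partner core gene Uqcrc2 stood on the other side. Uqcrc2 was at 16.09, 16.25 and 16.18 against 16.30, 16.37 and 16.19 on arrays 1, 2 and 3 of each group, differing by 0.11 (SE 0.12), with SRF-null array 3 inside the control range. Uqcrh, the acidic hinge protein that helps dock cytochrome c, was at 17.24, 17.16 and 17.09 against 17.30, 17.38 and 17.12, differing by 0.10 (SE 0.12). Uqcrfs1, the Rieske iron-sulfur protein, was at 14.89, 15.17 and 14.91 against 15.08, 15.07 and 15.07, differing by 0.083 (SE 0.12). Its SRF-null arrays were almost identical and lay inside the control range. Cyc1, the cytochrome c1 gene, differed by 0.048, Uqcrb by 0.013 and Uqcrq by 0.11. Uqcrq was the dimmest gene of the list on its best probe set, at the 67.8th percentile of all genes by mean signal, where the other 43 began at the 86.0th.

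Promoter windows from RefSeq (GRCm38.p6), reaching from 250 bases before to 50 after the transcription start, were available for 34 of the 44 genes. Nuclear respiratory factor 1 (NRF-1), ETS factors such as GABP, and YY1 are known regulators of respiratory chain genes, and SRF binds the CArG box. On either strand the palindromic core of the NRF-1 motif was found in 1 of 34 genes (2.94%, against 1.07% of 27025 genes), the ETS core CCGGAAG in 8 (23.5% against 9.93%), and the YY1 core AAGATGGCG in 3 (8.82% against 1.64%). The SRF CArG box was found in 0 of 34, against 1.81% of all genes. No match says only that these letters are absent from this window. The single NRF-1 match was in Uqcrc1, the gene with the largest difference. ETS matches were in Sdhb, Sdhd and Uqcrh, described above, and in Cox8a, Ndufb6, Ndufb7, Ndufs3 and Ndufs8. Stretches of 30 bases are shown for Uqcrc1, Sdhb, Sdhd and Uqcrh because they place the known motif beside genes whose values are given here. The match is in capitals, read 5′ to 3′ on the strand of the gene. A minus-strand ETS match reads CTTCCGG.
Uqcrc1, NRF-1 core, chr9:108936668-108936697 (+ strand): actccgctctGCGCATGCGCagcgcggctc
Sdhb, ETS core, chr4:140961266-140961295 (+ strand): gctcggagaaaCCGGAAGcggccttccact
Sdhd, ETS core, chr9:50603877-50603906 (- strand): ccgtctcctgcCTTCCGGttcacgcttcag
Uqcrh, ETS core, chr4:116075062-116075091 (- strand): agtatgccgcaCTTCCGGccaggtcgccgg
The Uqcrc1 and Sdhb matches lie after the start, from base 31 to 40 and from base 7 to 13, and those of Sdhd and Uqcrh before it, from base −46 to −40 and from base −10 to −4. Sdhb, Sdhd and Uqcrh, shown with an ETS match, differed by less than their standard errors. Ndufb6, which also has a match, differed by 0.22 (SE 0.18).

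Complex IV, cytochrome c oxidase, had 5 of 6 genes higher, with a median of 0.10 and differences of −0.072 to 0.16. None was separated by genotype. Without SRF-null array 3 the count was 3 of 6 and the median 0.053, and without control array 1 it was 4 of 6 with a median of 0.061. Cox6c, a small accessory subunit, was at 16.26, 16.31 and 16.28 against 16.38, 16.64 and 16.29 on arrays 1, 2 and 3 of each group, differing by 0.16 (SE 0.13), and most of this came from SRF-null array 2. Cox5b, which binds zinc on the matrix side, was at 16.72, 16.90 and 16.83 against 16.93, 16.99 and 16.89, differing by 0.12 (SE 0.11). Of its 6 probe sets 5 were higher, and the 1 that was lower was dim, at a mean of 4.601 in control and 4.34 in SRF-null cells. Cox4i1, the main isoform of subunit 4, was at 16.60, 16.56 and 16.49 against 16.66, 16.66 and 16.58, differing by 0.082 (SE 0.11). Ndufa4 was at 16.52, 16.08 and 16.18 against 16.27, 16.25 and 16.63, differing by 0.12 (SE 0.18), with the lowest value on control array 2 and the highest on SRF-null array 3. Without that SRF-null array the difference of Ndufa4 was −0.00079. Cox5a (0.023) and Cox8a (−0.072) also stayed within 1 standard error of 0.

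Complex V, the ATP synthase, had differences from −0.066 to 0.0085 in its 3 listed genes, all of the catalytic F1 part or its stalk. Atp5b, the catalytic beta subunit, was at 16.85, 17.06 and 17.02 against 16.94, 16.77 and 17.01 on arrays 1, 2 and 3 of each group, differing by −0.066 (SE 0.13). Atp5c1, the gamma subunit that turns inside F1, was at 16.90, 17.01 and 16.99 against 17.01, 17.01 and 16.90, differing by 0.0085 (SE 0.11) with a 95% interval of −0.26 to 0.28. Atp5o, the stalk subunit that confers oligomycin sensitivity, was at 16.56, 16.54 and 16.52 against 16.48, 16.47 and 16.62, differing by −0.014 (SE 0.11). The groups interleave in all 3 genes, and the sign of each of the 3 turned under at least 1 other setting.

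Several genes were measured more than once, and 28 of the 44 had several probe sets. Of the 52 probe sets not used above, 39 were higher and 13 lower in SRF-null cells, and 12 genes had at least 1 probe set with the opposite sign. Ndufa10 was such a case, at 0.062 on the brighter and −0.83 (SE 0.59) on the dimmer probe set. Ndufv2 was another, at −0.034 (SE 0.11) on the probe set used and 0.087 (SE 0.17) and 0.036 (SE 0.17) on its others.

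Read within the numbered pairs of arrays, the sign held in every pair for 19 of the 44 genes, while 25 changed sign between pairs. Of the 19, 16 were higher in all 3 pairs and 3 lower in all 3 (Uqcrc1, Sdhc and, on the probe set used, Ndufv2). The same share over all genes is not given here, so these counts are not read as particular to the 44 genes. The median over the 44 genes was 0.14 in pair 1, 0.014 in pair 2 and 0.059 in pair 3, against 0.014, −0.0011 and −0.029 over all genes. In pair 2 complex I genes (median 0.13) and complex IV genes (0.096) were higher, while complex II (−0.060), complex III (−0.097) and complex V (−0.070) were lower.

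Of the other genes of the pathway 0 passed the adjusted threshold in each list. Of 28 measured further subunit genes 21 were higher and 7 lower, with a median of 0.051, and 4 were separated by genotype (Uqcr10, Atp5k, Atp5j2 and Cox6b1, all higher), 14.3% of 28 against 10.6% of all genes. Without control array 1 the count was 17 of 28 higher and the median 0.033. Uqcr10, a small subunit of complex III, was at 14.81, 14.86 and 14.78 against 14.96, 15.12 and 15.03, differing by 0.22 (SE 0.11) with a limma adjusted p of 0.893. Uqcr11 differed by 0.22 (SE 0.14) and Ndufb4, dim on every array, by −0.28 (SE 0.18). Of 42 assembly factor genes 20 were higher and 22 lower (median −0.022), with 14 of 42 higher without control array 1 and 29 of 42 without control array 2. Sco2, a copper chaperone for complex IV, was the only assembly factor with an unadjusted limma p under 0.05, at 13.48, 13.63 and 13.45 against 13.22, 12.93 and 13.33 with a difference of −0.36 (SE 0.15) and an adjusted p of 0.858. Such a p was thus found for 1 of 42 assembly factors, against 5.73% of all genes. Uqcc2 differed by 0.22 (SE 0.13) and Sdhaf2 by −0.24 (SE 0.17). Of 18 tricarboxylic acid cycle genes 8 were higher and 10 lower (median −0.024). The count was 3 of 18 without control array 1 (median −0.11), 4 of 18 after median centring and 10 of 18 without control array 2, control array 3 or SRF-null array 2. The smallest p belonged to Dlat (0.28 (SE 0.17)), Ogdh (−0.33 (SE 0.20)) and Dlst (−0.22 (SE 0.14)).

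Among 19 regulators of mitochondrial biogenesis 8 were higher and 11 lower (median −0.0027), and 9 to 10 were higher with 1 array left out. Of the 19, 2 were separated, 1 higher and 1 lower, against 10.6% of all genes. An unadjusted limma p under 0.05 was found for 1 of 19, against 5.73% of all genes. Pprc1, a coactivator of the PGC-1 family, was at 14.61, 14.75 and 14.53 against 14.29, 13.90 and 14.43 on arrays 1, 2 and 3 of each group, a difference of −0.43 (SE 0.17) without overlap and the 1 regulator with an unadjusted limma p under 0.05 (adjusted p = 0.858). Ppargc1a, the founding member of that family, was at 8.15, 6.69 and 8.21 against 8.06, 10.55 and 8.60, differing by 1.39 (SE 0.74), mostly from SRF-null array 2. Myc, at 14.04, 14.26 and 13.67 against 13.42, 12.80 and 14.08, differed by −0.55 (SE 0.34), with its lowest value on that same array. Gabpa was the regulator separated upward, at 13.278, 13.357 and 13.201 against 13.410, 13.361 and 13.604, differing by 0.18 (SE 0.12).

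The subunit isoforms that are restricted to particular tissues were mostly dim, and 3 of 9 were higher, or 6 of 9 without control array 3. Cox6a2, the heart and muscle form of subunit 6a of complex IV, was at 8.23, 8.35 and 10.60 against 11.14, 11.17 and 11.80, a separation of 2.31 (SE 0.65) with a limma adjusted p of 0.703. Control array 3 was close to the SRF-null arrays while control arrays 1 and 2 were far below. Cox6b2, the testis form of subunit 6b, was not dim, at 14.73, 14.61 and 14.80 against 14.86, 15.18 and 14.93. Its groups were also separated, with a difference of 0.27 (SE 0.14). Ndufa4l2 differed by −0.22 (SE 0.15). Of the 9 isoforms 2 were thus separated, both higher, against 10.6% of all genes.

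**Figure D4:**
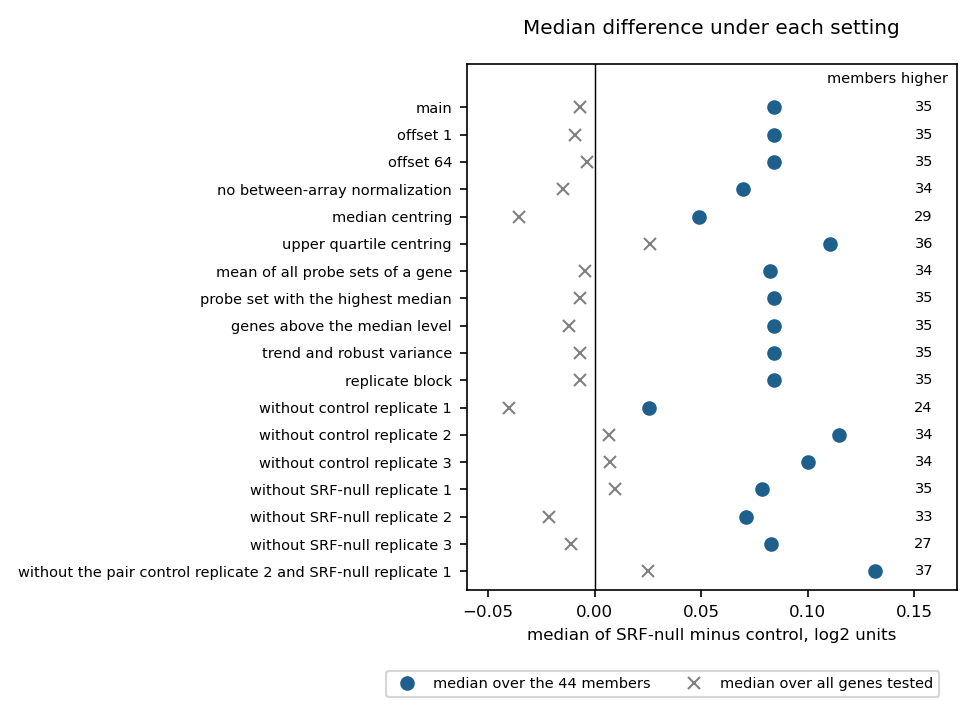
Median difference (x axis, log2 units) over the 44 genes (circles) and over all genes tested (crosses) under the reported setting ("main") and each alternative (y axis), with the number of the 44 genes that were higher at the right. The median stays between 0.026 and 0.13, lowest without control replicate 1.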

How the data were processed

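Per the labels' protocols, RNA from sorted LSK pools was amplified with a NuGEN kit, biotin-labelled and hybridised to Affymetrix arrays. The deposited table holds 1 linear intensity per probe set and array, a unit read from the values. No source used here says how the authors summarised, corrected and scaled these intensities. The members and the gene lists were chosen with earlier results of these data known.

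After 64 control probe sets were left out, values were taken as log2(intensity + 16), which understates the change of dim genes, and quantile normalized. Each gene was represented by its probe set with the highest mean among those naming that gene alone (34945 probe sets, 18193 genes), with no filter on dim genes. All 44 member genes were thus tested, and 0 of their values lay under a signal of 16. Groups were compared with limma 3.58.1 in R 4.3.3 (lmFit, eBayes, both directions, genotype as the only term), adjusted by Benjamini-Hochberg over all genes, and 0 genes passed 0.05 while 1042 had an unadjusted p under 0.05. The fit was tested on simulated data with differences larger than any among the 44 genes. That test gives no measure of sensitivity at the sizes reported here. Other probe sets were fitted over all probe sets that are no controls. Figures were drawn with matplotlib 3.10.9.

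Given with every array are all genes of complexes II and V, the 8 of complex I and the 4 each of complexes III and IV with the smallest p, and every separated gene. Of other lists up to 3 genes with the smallest p are named. Ndufs1, Ndufa10, Ndufv2, Gabpa, Kit, Cd34 and the separated genes of the further subunits were picked after their values were seen.

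Replicates carry the numbers 1 to 3 in both groups. Over all genes the deviations from the group means of equally numbered arrays correlated at 0.198, 0.125 and 0.367. For arrays of unequal number these correlations ran from −0.24 to 0.032. The labels name no pairing, and control array 2 and SRF-null array 1 held transcripts of 1 sex, unlike their partners. The numbers therefore served as pairs only in the block fit and the pair differences. Every other SE, interval and p comes from the fit without the block. The number of arrays limits the precision.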

Additional observations from a re-analysis of the deposited data

How the results depend on the processing

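Over 17 alternatives 0 of the 44 genes passed the adjusted threshold in any, with limma in each. The count with an unadjusted limma p under 0.05, 0 as reported, was 2 with an offset of 64, 1 with only genes above the median level, 3 with a trended and robust variance, and 0 to 3 when each array was left out in turn. The genes were Uqcrc1, Ndufb8, Ndufa3 and Ndufa6, with adjusted p-values of at least 0.590. With the replicate number as a block 0 of the 44 passed, 0 had an unadjusted p under 0.05 (8.12% of all genes), and the block changed no other call. The count of separated genes, 3 as reported, was 0 after median centring. It was 3 to 17 with 1 array left out and 18 without the pair of 1-sex arrays (control replicate 2, SRF-null replicate 1). Smaller groups separate more often by construction. Apart from the block fit, shares over all genes are not given here for these alternatives. The counts of separated genes and of unadjusted p are therefore not read as a trait of the 44 genes. The median difference was 0.026 to 0.11 with 1 array left out, lowest without control replicate 1, and 0.13 without that pair, and the count of higher genes was 24 to 37 over the alternatives. Of 24 genes given with every array, 18 kept their sign in all 17 alternatives. The sign turned for Sdha (0.0019 as reported, −0.012 without normalization, −0.033 after median centring, −0.15 to 0.050 with 1 array left out, and, keeping the reported sign, 0.059 without that pair and 0.25 with the mean of all probe sets), Ndufs1 (−0.23 to 0.053 with 1 array left out), Atp5c1 (−0.020 after median centring, −0.027 to 0.046), Atp5o (0.011 after upper quartile centring, 0.036 with the mean of all probe sets, 0.0051 without that pair, −0.063 to 0.014), Atp5b (−0.13 to 0.0022) and Ndufa4 (−0.00079 to 0.25). The cause was not tested.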
